A study of Homo sapiens with 11 samples.

Results

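The miR-191 and miR-425 cluster is a pair of microRNA (miRNA) hairpins of the DALRD3 locus on human chromosome 3. Its 4 mature products, hsa-miR-191-5p, hsa-miR-191-3p, hsa-miR-425-5p and hsa-miR-425-3p (the prefix hsa, for human, is left out below where no confusion arises), were taken by name from 2588 mature miRNAs that the study counted by small RNA-seq, and each of the 4 had 1 genomic row in every table. The values come from 11 libraries of 6 human cancer-derived cell lines, all parental cells without a transfected siRNA. A549 (lung cancer), ES2 (ovarian cancer), MV3 (melanoma), BE(2)C (neuroblastoma) and HepG2 (liver cancer) had 2 libraries each, and PANC1 (pancreas cancer) had 1. Cells were harvested 48 h after seeding, except that for BE(2)C the treatment protocol gives 24 h and the sample characteristics give 48 h. BE(2)C was also grown in a different medium. The libraries of A549, ES2, MV3 and PANC1 were made from 50 ng total RNA with a NEXTflex kit, whereas those of BE(2)C and HepG2 were prepared by Novogene. Sequencer and read length changed with the preparation, so for any comparison that spans both preparations the line and the preparation cannot be told apart. Each line is 1 line and stands for no tumour type, and nothing in the labels says whether the 2 libraries of a line came from separate cultures, so the p-values measure the spread between these libraries, which may be technical.

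A miRNA hairpin is cut from a longer transcript by Drosha and then by Dicer, which leaves a short duplex. One strand of the duplex, from the 5p or the 3p arm, is loaded into an Argonaute protein and guides it to mRNAs that pair with the seed near its 5′ end. The other strand is mostly degraded, so that the reads of the 2 arms of a hairpin usually differ greatly. Hairpins that lie close together on a strand may come from a shared primary transcript, and miR-191 and miR-425 are commonly described as such a pair. DALRD3 encodes a protein with an anticodon-binding domain that takes part in the methylation of arginine tRNAs. MiR-191-5p and miR-425-5p are known as broadly expressed miRNAs, and both are used as reference genes for RT-qPCR.

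In GENCODE 44 (genome build hg38, GRCh38), MIR425 lies at chr3:49020148-49020234 and MIR191 at chr3:49020618-49020709, both on the minus strand with 383 bases between them. Both hairpins lie within an intron of 4 annotated DALRD3 transcripts and upstream of the canonical one, by 1567 bases for MIR425 and 2037 bases for MIR191. MIR191 is also located in an intron of an NDUFAF3 transcript that runs on the plus strand. NDUFAF3 encodes an assembly factor of mitochondrial complex I. For 3 of the 4 members a mature sequence was found in RefSeq (GRCh38.p14). They are printed 5′ to 3′ because the seed, bases 2 to 8 in capitals, sets which mRNAs a miRNA can pair with.

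miR-191-5p: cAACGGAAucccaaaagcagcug
miR-191-3p: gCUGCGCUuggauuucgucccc
miR-425-3p: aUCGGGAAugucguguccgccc

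The 3 printed seeds differed from each other, and none of them was shared with another of the 2370 mature entries of the reference table. The sequences span chr3:49020672-49020694 for miR-191-5p, chr3:49020631-49020652 for miR-191-3p and chr3:49020159-49020180 for miR-425-3p. On the minus strand the MIR191 hairpin precedes that of MIR425.

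Between 1173902 and 12137452 reads per library were assigned to miRNAs (median 2670030). Where no read was found, up to 3 may have been missed, which corresponds to 2.56 CPM at the lowest depth and 0.247 CPM at the highest. CPM is the number of reads of a miRNA after each library was scaled to 1000000 reads over all listed miRNAs, and intervals and floors here cover counting error only. A single miRNA took 75.3% and 72.6% of the reads in the 2 HepG2 libraries (miR-148a-3p), so that all other miRNAs there shared the remaining reads. The BE(2)C libraries differed most between replicates, with 24.4% of 401 miRNAs apart by more than 2-fold against 0.602% to 5.59% in the other replicated lines. On CPM, line markers were partly at odds with the labels. The neural miR-9-5p and miR-218-5p reached 16715 and 78501 CPM in BE(2)C, and the hepatic and gut miR-192-5p 15859 CPM in HepG2 (2729.8 CPM in A549). The hepatocyte marker miR-122-5p, however, had 57.0 CPM in HepG2 and 415 CPM in BE(2)C, and miR-194-5p of the same list had 229.8 CPM in HepG2 and 1891 CPM in A549. With the TMM factors described below, miR-122-5p was highest in HepG2, at 8.22 against 5.69 in BE(2)C (line means of log2(value + 1)). Its difference across the 6 lines did not pass there (limma F adjusted p = 0.117). The melanocyte marker miR-211-5p was at 0 in every line including MV3, miR-204-5p of that list had 1.497 CPM in MV3 and 55.6 CPM in BE(2)C, and the pancreatic acinar miR-216a-5p was at 0 in PANC1. The epithelial miR-200c-3p ranged from 21.8 to 79.6 CPM over the lines, and the blood miRNAs miR-142-3p and miR-451a had 306 CPM in ES2 and 173 CPM in BE(2)C. The part of these values in the results below was not tested.

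The main product of the first hairpin, hsa-miR-191-5p, was highest in PANC1 and lowest in HepG2 on the CPM scale. Its levels were 1268 and 1051 CPM in A549, 2368 and 2461 CPM in ES2, 3147 and 2988 CPM in MV3 and 10598 CPM in PANC1. In the Novogene libraries it had 472 and 1113 CPM in BE(2)C and 268 and 324 CPM in HepG2. The 7 NEXTflex libraries fell in the order PANC1, MV3, ES2 and A549 with no overlap between lines. The higher BE(2)C library, in contrast, exceeded the lower A549 library, so that these neighbours overlapped. Line means were 1159 ± 154 CPM in A549, 2415 ± 65.8 CPM in ES2, 3068 ± 112 CPM in MV3, 793 ± 453 CPM in BE(2)C and 296 ± 39.3 CPM in HepG2 (SD, n = 2 each). In PANC1 the level was 3.45-fold that of MV3, the next line, and 35.8-fold that of HepG2. By rank miR-191-5p was the 15th most abundant miRNA in PANC1, between the 36th and the 50th in the other NEXTflex libraries, the 117th and the 92nd in BE(2)C and the 46th and the 43rd in HepG2.

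The main product of the second hairpin, hsa-miR-425-5p, followed a different order. It reached 385 and 305 CPM in A549, 912 and 1015 CPM in ES2, 870 and 945 CPM in MV3 and 6679.5 CPM in PANC1. Its Novogene values were 2772 and 1523 CPM in BE(2)C and 299.9 and 360.0 CPM in HepG2. PANC1 was again highest, but BE(2)C was second and above all ES2, MV3 and A549 libraries. ES2 and MV3 overlapped, as did A549 and HepG2. The line means were 345 ± 56.5 CPM in A549, 963 ± 73.1 CPM in ES2, 907 ± 53.2 CPM in MV3, 2148 ± 883 CPM in BE(2)C and 329.967 ± 42.5 CPM in HepG2 (SD, n = 2 each). PANC1 exceeded BE(2)C by 3.11-fold and HepG2 by 20.2-fold.

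The 3p arms, the minor products, were far less abundant. Of these, hsa-miR-191-3p had 7.87 and 6.31 CPM in A549, 26.5 and 23.1 CPM in ES2, 35.8 and 47.1 CPM in MV3 and 119.8 CPM in PANC1. Its values in BE(2)C were 5.58 and 3.21 CPM, and those in HepG2 were 1.60 and 0.659 CPM, from 19 and 8 reads. No neighbouring lines overlapped for this arm, and the order was that of miR-191-5p. The other, hsa-miR-425-3p, had 7.87 and 12.6 CPM in A549, 31.9 and 45.8 CPM in ES2, 111.6 and 89.7 CPM in MV3 and 168 CPM in PANC1. In BE(2)C this arm reached 25.8 and 40.7 CPM, and in HepG2 it had 4.80 and 6.67 CPM. Here MV3 was second after PANC1, ES2 and BE(2)C overlapped, and the second place of BE(2)C seen for miR-425-5p was not shared by its 3p arm.

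**Figure D1:**
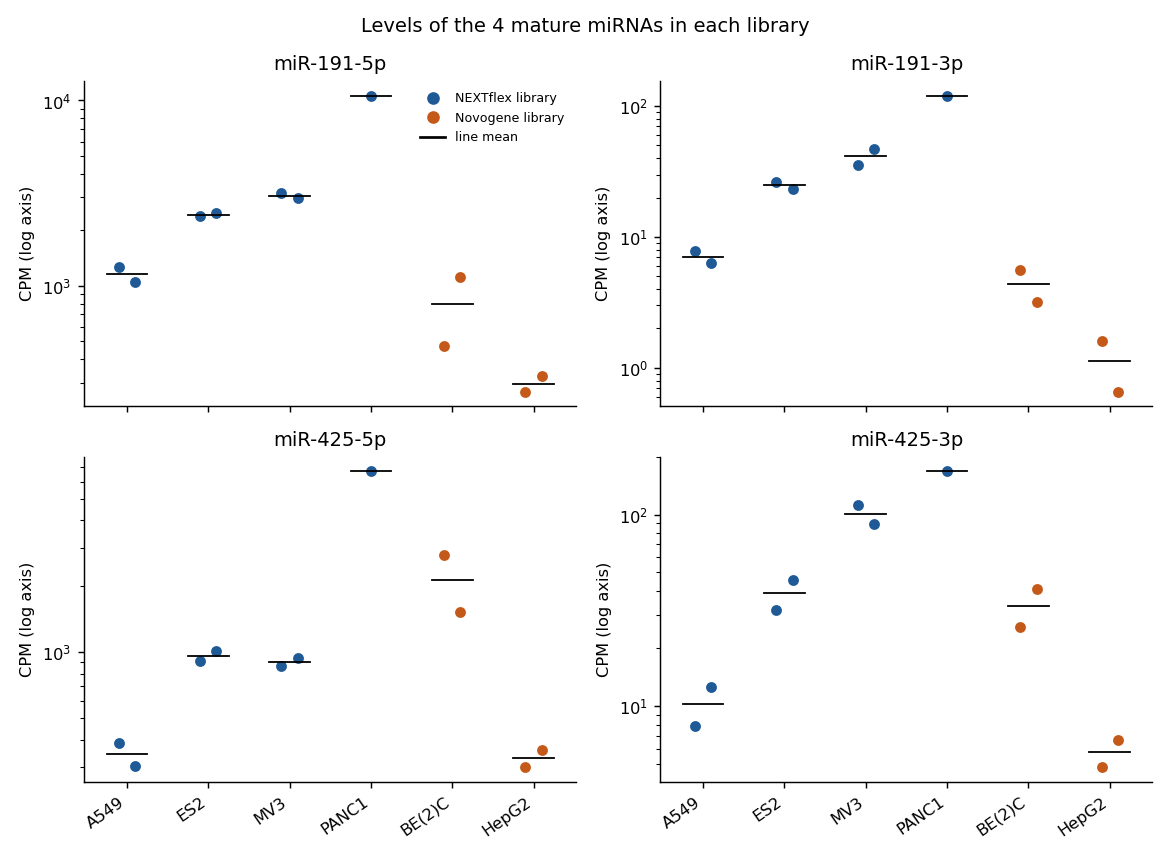
CPM (log axis) of the 4 mature miRNAs in each of the 11 libraries, with points coloured by library preparation and black bars for line means; each panel has its own axis range. PANC1 is highest in all 4 panels (10598 CPM for miR-191-5p), and BE(2)C stands second only for miR-425-5p.

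All 4 members differed across the 6 lines (limma moderated F test on log2(CPM + 1), Benjamini-Hochberg adjusted over 546 tested miRNAs), as did 99.3% of the tested miRNAs. Adjusted p was 6.49e-05 for miR-191-5p, 2.63e-05 for miR-191-3p, 3.07e-05 for miR-425-5p and 6.03e-05 for miR-425-3p. Within the 4 NEXTflex lines all 4 members passed too, where 85.4% of 453 miRNAs did, with limma adjusted p between 0.00012 (both 5p arms) and 0.00174 (miR-425-3p). A difference between lines was thus not particular to the cluster. The distance between the highest and the lowest line mean was 5.16 for miR-191-5p and 4.34 for miR-425-5p on the log2(CPM + 1) scale, against a median of 5.13 over all tested miRNAs. The ranges of the 3p arms were 5.86 for miR-191-3p and 4.66 for miR-425-3p. Without PANC1 the ranges of the 5p arms were 3.37 for miR-191-5p and 2.64 for miR-425-5p. PANC1 held the highest mean for all 4 members, which was the case for 19.8% of tested miRNAs, and it rests on a single library. HepG2 held the lowest mean for all 4, as for 46.3% of tested miRNAs.

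The position of HepG2 depended on the scale. TMM factors (trimmed mean of M-values, a scaling that assumes most miRNAs to be level between libraries) were 0.166 and 0.217 for the HepG2 libraries and between 1.02 and 1.87 for all others. With these factors the mean of miR-191-5p in HepG2 was 1554 ± 86.3 and that of miR-425-5p 1732 ± 103 (SD, n = 2, TMM-scaled CPM). The lowest line was then BE(2)C for both miR-191 arms, with 508 ± 257 for miR-191-5p, and A549 for both miR-425 arms, with 327 ± 71.4 for miR-425-5p. PANC1 remained highest for all 4 members on this scale, with 6006 for miR-191-5p and 3785 for miR-425-5p, where 13.9% of tested miRNAs were highest in PANC1. All 4 members also passed the F tests with TMM factors, as did 95.6% of tested miRNAs over the 6 lines and 76.2% over the NEXTflex lines.

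**Figure D2:**
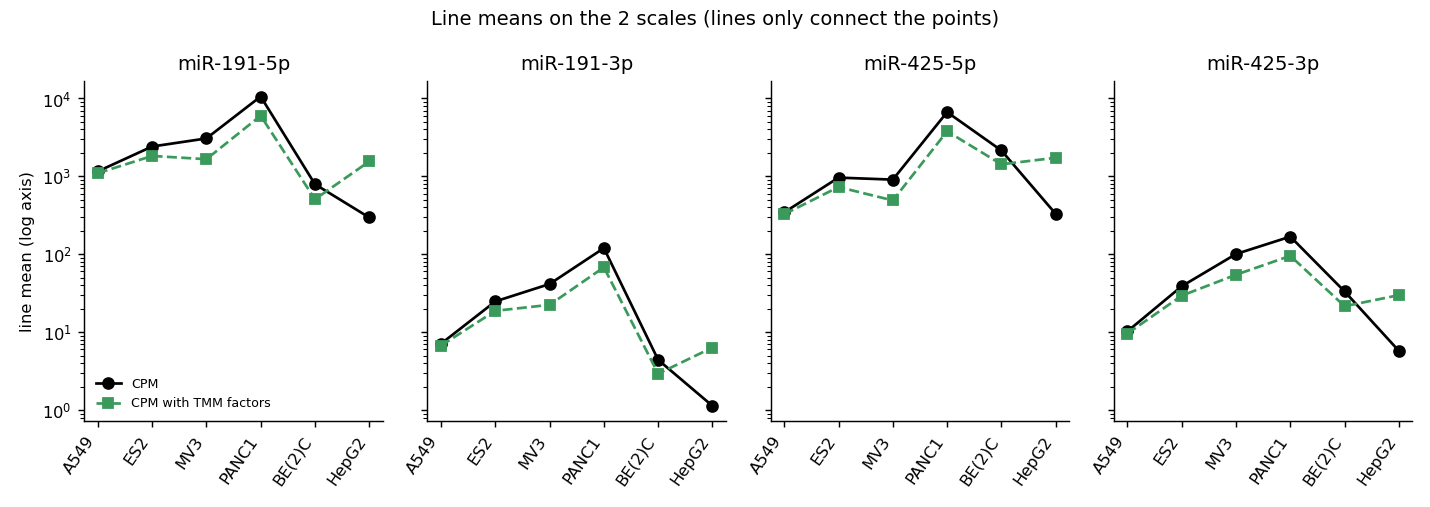
Line means (log axis) of the 4 members as CPM (black circles) and as CPM with TMM factors over all libraries (green squares). HepG2 moves from the lowest place to 1554 for miR-191-5p and 1732 for miR-425-5p, whereas PANC1 stays highest on both scales.

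To ask how the lines differed in pairs, contrasts were drawn for the 10 pairs of the 5 replicated lines, which gives 40 tests of the members. On CPM 32 passed the threshold, against 21 with TMM factors. The share of all tested miRNAs past it on CPM is given beside each pair. With TMM factors it was 47.3% for A549 against ES2, 48% for A549 against MV3, 27.1% for ES2 against MV3 and 64.3% for BE(2)C against HepG2. For pairs across the preparations it was 76% for A549, 76.6% for ES2 and 74.7% for MV3 against BE(2)C, and 69% for A549, 61.2% for ES2 and 63.7% for MV3 against HepG2. Log2 differences below are on the log2(CPM + 1) scale with their SE, and each p is a limma p adjusted over all 546 tested miRNAs.

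Within the NEXTflex preparation, A549 had less of all 4 members than ES2 and MV3. For A549 against ES2 all 4 passed (50.5% of all tested miRNAs did), with a median of -1.58 for the members and -0.17 over all tested miRNAs. MiR-425-5p was lower in A549 by -1.49 ± 0.28 (SE, limma adjusted p = 0.00304). The miR-191-5p difference was -1.06 ± 0.36 (limma adjusted p = 0.0391). This call was lost when either library of A549, ES2, MV3 or HepG2 was left out, but not without a BE(2)C library. The difference itself stayed between -1.20 and -0.93 with 1 library left out. Its SE was pooled over all lines, BE(2)C among them. From replicate 1 to replicate 2 miR-191-5p changed by 1.24 in BE(2)C, -0.27 in A549 and 0.06 in ES2 (log2). With TMM factors 2 of the 4 members passed for this pair. Both miR-191 arms were lost there, with -0.75 for the 5p arm (limma adjusted p = 0.0934) and -1.37 for the 3p arm (limma adjusted p = 0.0556). The leading miRNA, miR-21-5p, took 65.0% and 64.2% of the reads in A549 against 27.0% to 33.5% in the other NEXTflex libraries, and its part in the lower CPM of A549 was not tested. Against MV3 all 4 were lower in A549 as well (57.3% of all tested passed, median of all tested -0.47). The largest of these differences was that of miR-425-3p with -3.20 ± 0.37 (limma adjusted p = 0.00023). The 5p arms differed from MV3 by -1.41 ± 0.36 for miR-191-5p (limma adjusted p = 0.0109) and -1.40 ± 0.28 for miR-425-5p (limma adjusted p = 0.00397). With TMM factors neither 5p arm passed (-0.61, limma adjusted p = 0.163, and -0.60, limma adjusted p = 0.162), whereas both 3p arms did. The miR-191-5p call against MV3 was also lost without A549 replicate 2 (limma adjusted p = 0.0684) or MV3 replicate 1 (limma adjusted p = 0.0586).

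ES2 and MV3 were closer to each other, with 1 of the 4 members past the threshold and 32.8% of all tested miRNAs. That member was miR-425-3p, lower in ES2 by -1.37 ± 0.37 (limma adjusted p = 0.0247). This call was lost without ES2 replicate 1 (limma adjusted p = 0.130), without MV3 replicate 1 (limma adjusted p = 0.121), without MV3 replicate 2 (limma adjusted p = 0.0633) and with TMM factors (-0.88, limma adjusted p = 0.0841). The main products of both hairpins did not pass, with -0.34 ± 0.36 for miR-191-5p and 0.09 ± 0.28 for miR-425-5p.

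Across the preparations, BE(2)C had less of both miR-191 arms and more miR-425-5p than ES2 and MV3. Against MV3 all 4 members passed (78% of all tested), with miR-191-5p higher in MV3 by 2.08 ± 0.36 (limma adjusted p = 0.000918) and miR-425-5p lower in MV3 by -1.18 ± 0.28 (limma adjusted p = 0.00545). These opposite signs held with TMM factors, at 1.80 (limma adjusted p = 0.00106) and -1.45 (limma adjusted p = 0.00317). The same signs were found against ES2, where 3 of 4 members passed (77.5% of all tested), with 1.73 ± 0.36 for miR-191-5p (limma adjusted p = 0.00243) and -1.09 ± 0.28 for miR-425-5p (limma adjusted p = 0.00782). Against A549 2 of 4 passed (76.7% of all tested). Both were miR-425 arms, lower in A549 by -2.58 ± 0.28 for the 5p arm (limma adjusted p = 7.39e-05) and -1.60 ± 0.37 for the 3p arm (limma adjusted p = 0.00435). MiR-191-5p differed from A549 by 0.67 ± 0.36 on CPM (limma adjusted p = 0.121). It passed with TMM factors (1.20, limma adjusted p = 0.00955). The CPM difference depended on the BE(2)C library kept, at 0.05 without replicate 1 and 1.29 without replicate 2.

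Comparisons with HepG2 turned on the scale. On CPM all 4 members were lower in HepG2 than in BE(2)C, both Novogene lines (83% of all tested passed), by 1.30 ± 0.36 for miR-191-5p (limma adjusted p = 0.00989) and 2.64 ± 0.28 for miR-425-5p (limma adjusted p = 4.93e-05). Over all tested miRNAs the median difference of this pair was 2.79 on CPM and 0.49 with TMM factors, so each member differed by less than that median. With TMM factors all 4 signs turned, and miR-191-5p was lower in BE(2)C by -1.71 ± 0.32 (limma adjusted p = 0.00179), while the other 3 did not pass. For miR-191-5p the CPM call was lost without HepG2 replicate 1 (limma adjusted p = 0.0572). For miR-191-3p it was lost without BE(2)C replicate 1 (limma adjusted p = 0.0538) or HepG2 replicate 2 (limma adjusted p = 0.0849).

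The 3 NEXTflex lines with replicates exceeded HepG2 on CPM for all members, with 4 of 4 past the threshold for ES2 (60.8% of all tested), 4 of 4 for MV3 (69.6%) and 2 of 4 for A549 (67.6%). The median difference from A549 over all tested miRNAs was 1.55 on CPM and 0.23 with TMM factors. MiR-425-5p was nearly level between A549 and HepG2 on CPM (0.06 ± 0.28, limma adjusted p = 0.900) and lower in A549 by -2.42 ± 0.32 with TMM factors (limma adjusted p = 0.0002). With TMM factors it was also lower in ES2 (-1.25, limma adjusted p = 0.00885) and in MV3 (-1.82, limma adjusted p = 0.00119) than in HepG2. For miR-191-5p no difference from HepG2 passed with TMM factors, with -0.51 for A549, 0.24 for ES2 and 0.10 for MV3.

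The balance of the 2 hairpins within a library does not depend on how libraries are scaled. Summed over both arms, miR-191 reads were 3.25 and 3.33 times the miR-425 reads in A549, 2.54 and 2.34 times in ES2, 3.24 and 2.93 times in MV3 and 1.57 times in PANC1. In BE(2)C the ratio was 0.171 and 0.714, and in HepG2 it was 0.886 and 0.885. Thus miR-191 was the more abundant hairpin in all 7 NEXTflex libraries and miR-425 in all 4 Novogene libraries, and the line and the preparation cannot be told apart in this split. The HepG2 libraries had nearly the same ratio, whereas the BE(2)C libraries differed by a wide margin. In BE(2)C replicate 1 miR-425 reads exceeded miR-191 reads by 5.86-fold, and in replicate 2 by 1.40-fold.

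On the log2 scale the means of this ratio were 1.72 ± 0.02 in A549, 1.29 ± 0.08 in ES2, 1.63 ± 0.10 in MV3, 0.65 in PANC1, -1.52 ± 1.46 in BE(2)C and -0.18 ± 0.00083 in HepG2 (SD, n = 2 except PANC1). The ratio differed across the 6 lines (exact permutation test, F statistic, every possible assignment of libraries to lines, p = 0.0158, adjusted over both tests 0.0158). This call was lost without either library of A549, MV3 or HepG2, with exact permutation p between 0.0535 and 0.0586. Without BE(2)C replicate 1 the range of line means was 2.20, and without BE(2)C replicate 2 it was 4.27. BE(2)C then had 1 library, so its wide replicate spread no longer entered the test. The p of these 2 omissions is therefore no measure of robustness and is not given. Among the 4 NEXTflex lines the ratio differed as well (exact permutation p = 0.00952, the smallest possible for these 7 libraries, adjusted over both tests 0.0158). Leaving out PANC1 reduced the range of line means from 1.07 to 0.43 with p = 0.0667 in the exact permutation test, which cannot go lower with the 15 assignments left. PANC1 hence had the most even balance of the NEXTflex lines, with 61.0% of the cluster's reads from miR-191 against 70.1% to 76.9% in the other NEXTflex libraries.

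**Figure D3:**
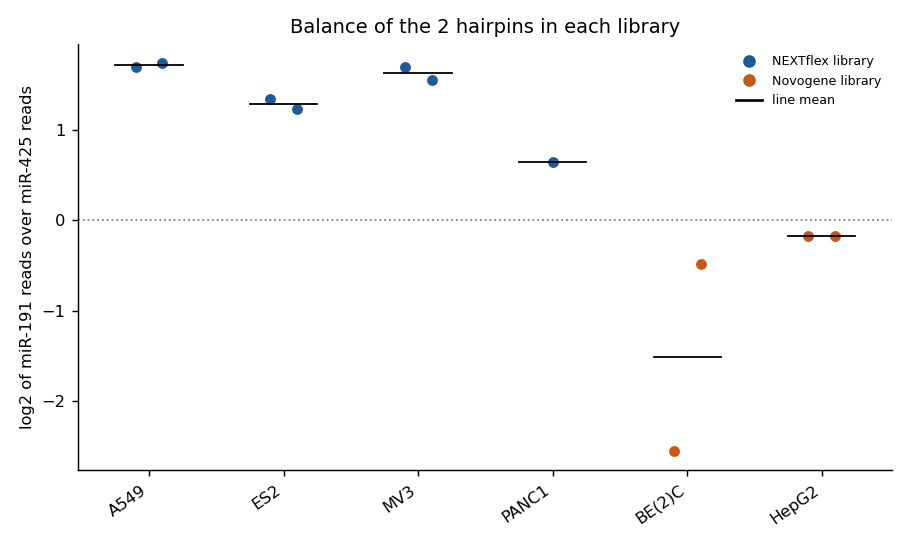
Log2 of all miR-191 reads over all miR-425 reads in each library; the dotted line marks equal reads, colours mark the preparation and black bars the line means. All NEXTflex libraries lie above 0 and all Novogene libraries below it, and the BE(2)C libraries lie at -2.55 and -0.49.

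The sum of the 4 members, as the output of the cluster, was 1668 and 1374 CPM in A549, 3338 and 3545 CPM in ES2, 4164 and 4070 CPM in MV3 and 17566 CPM in PANC1. In BE(2)C it was 3275 and 2681 CPM and in HepG2 575 and 691 CPM. BE(2)C thus lay near ES2 in summed CPM, although its reads were divided differently between the hairpins. HepG2 had the lowest sum on CPM, but this place turned on the scale. With TMM factors its means were 1554 for miR-191-5p and 1732 for miR-425-5p. These exceeded the means of A549 (1097 and 327) and of BE(2)C (508 and 1428). Between the BE(2)C libraries miR-191-5p was 2.36-fold higher in replicate 2 and miR-425-5p 1.82-fold higher in replicate 1. Of the 401 miRNAs compared, 15.0% differed more between these libraries than miR-191-5p and 33.7% more than miR-425-5p. In A549, ES2, MV3 and HepG2 the 5p arms differed between replicates by 1.04-fold to 1.26-fold.

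To compare the arms, the share of 3p reads among the reads of a hairpin was used. For miR-191 the share was 0.617% and 0.597% in A549, 1.10% and 0.929% in ES2, 1.12% and 1.55% in MV3 and 1.12% in PANC1. In BE(2)C it was 1.17% and 0.288%, and in HepG2 0.592% and 0.203%. The 5p arm hence made up nearly all miR-191 reads in every library, by 63.4-fold to 492-fold over the 3p arm. The 95% Wilson intervals of the BE(2)C libraries, 0.866% to 1.58% and 0.188% to 0.439%, did not overlap, so the replicates of this line differed by more than counting error.

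For miR-425 the 3p share was higher in each library but 1 and more variable. It was 2.00% and 3.98% in A549, 3.38% and 4.31% in ES2, 11.4% and 8.67% in MV3 and 2.46% in PANC1. The share in BE(2)C was 0.922% and 2.60%, and in HepG2 it was 1.57% and 1.82%. Both MV3 libraries stood above all 9 others, with Wilson intervals from 9.67% to 13.3% and from 7.39% to 10.1%, whereas the highest upper bound elsewhere was 5.76% (A549 replicate 2). The exception to the higher share of miR-425 was BE(2)C replicate 1, with 0.922% for miR-425 against 1.17% for miR-191. In BE(2)C the shares of the 2 hairpins moved in opposite directions between the replicates.

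**Figure D4:**
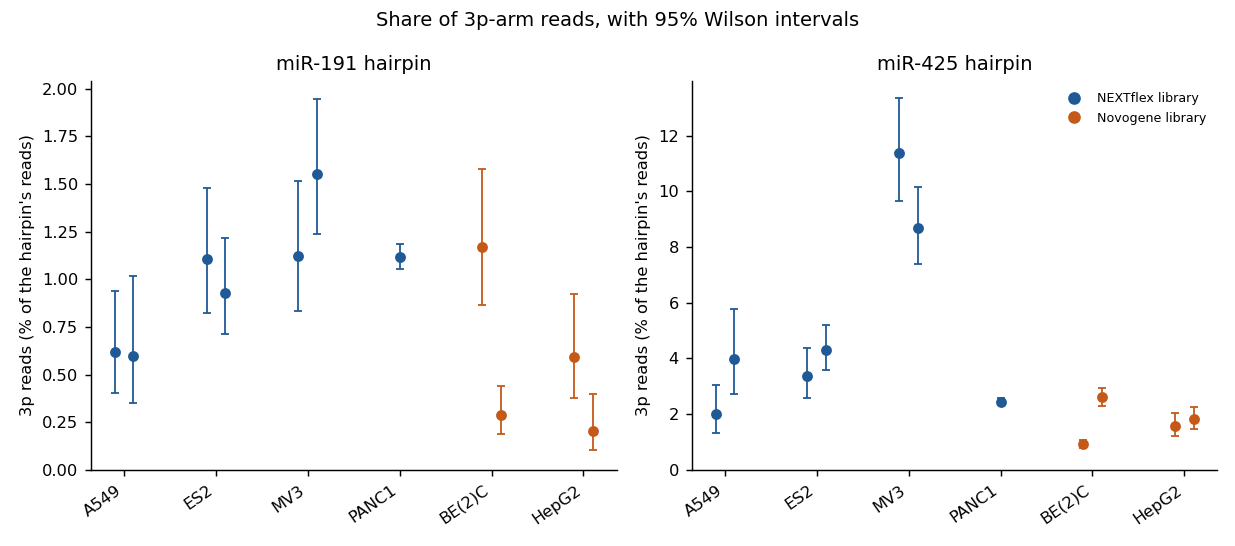
Share of 3p-arm reads in all reads of the miR-191 (left) and the miR-425 hairpin (right) per library, in percent, with 95% Wilson intervals that cover counting error only; the axes differ between the panels. The MV3 libraries reach 11.4% and 8.67% for miR-425, above every other library. For miR-191 MV3 replicate 2 is also the highest (1.55%), but MV3 replicate 1 (1.12%) lies among the other libraries.

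The arm ratio, log2((5p CPM + 1)/(3p CPM + 1)), was tested over 160 hairpin names, called hairpins below. Each arm had to reach a mean of 10 CPM in 1 or more lines. Genomic rows of the same mature name were summed, so a name can cover several loci. For miR-191 no difference across the 6 lines was detected (limma F adjusted p = 0.520), with 0 of 10 pairs past the threshold in limma at an adjusted p and at an unadjusted p. The replicate SD of this ratio was 1.33 in BE(2)C and 0.65 in HepG2, against 0.0055 to 0.33 in A549, ES2 and MV3. The SE pooled over the lines was 0.60, which limits what this fit can detect. In the fit of the 4 NEXTflex lines, A549 against MV3 had an unadjusted p of 0.0178 (0.98 ± 0.27, limma adjusted p = 0.0775). For miR-425 the ratio differed (limma F adjusted p = 0.0145), as it did for 83.1% of the 160 hairpins. The ratio was lower in MV3 than in BE(2)C by -2.78 ± 0.57 (SE, limma adjusted p = 0.00293; 55.6% of hairpins passed) and than in HepG2 by -2.46 ± 0.57 (limma adjusted p = 0.00522; 56.9% passed), across preparations. A549 exceeded MV3 by 1.80 ± 0.57 (limma adjusted p = 0.0450; 25.6% passed), which did not pass in the fit of the 4 NEXTflex lines alone (1.80 ± 0.42, limma adjusted p = 0.0668). ES2 exceeded MV3 by 1.45 ± 0.57, which did not pass (limma adjusted p = 0.120; 10.6% passed). The other 6 pairs did not pass for miR-425 either. In these pairs the share of hairpins past the threshold was 25.6% for A549 against ES2, 59.4% for A549 against BE(2)C, 61.2% for A549 against HepG2, 66.2% for ES2 against BE(2)C, 50.6% for ES2 against HepG2 and 44.4% for BE(2)C against HepG2. Without MV3 replicate 1 the F test of miR-425 no longer passed (limma adjusted p = 0.0820). Within the 4 NEXTflex lines neither hairpin passed, with limma F adjusted p of 0.165 for miR-191 and 0.0778 for miR-425, and 13.4% of 127 hairpins did.

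Because of these shares the minor arms gave another picture of the hairpin balance than the main products. MiR-425-3p had more reads than miR-191-3p in every library except A549 replicate 1, where each arm had 21 reads. The ratio of the 3p arms alone did not differ across the 6 lines (exact permutation p = 0.123) or the 4 NEXTflex lines (exact permutation p = 0.6), whereas that of the 5p arms did (exact permutation p = 0.0144 and 0.0286). The 3p arms had as few as 8 reads in a library, which limits their ratio.

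The likeness of the members' profiles was described by Pearson's r of log2(CPM + 1) over the 11 libraries. These are not independent points, since 10 of them come in pairs from 1 line and preparation. Of 545 other miRNAs, miR-2110 (r = 0.978) was most like miR-191-5p, followed by its own 3p arm (r = 0.952), miR-6803-3p (r = 0.946), miR-30e-5p (r = 0.943) and miR-935 (r = 0.940). MiR-425-3p stood at rank 37 with r = 0.863 and miR-425-5p at rank 179 with r = 0.591. With TMM factors miR-2110 remained first by Pearson's r (0.932), and miR-425-5p had r = 0.232. By Spearman's rho miR-2110 was not among the top 5 on either scale. MiR-374a-5p came first on CPM (rho = 0.973), where the 3p arm had rank 9, and miR-130b-5p with TMM factors (rho = 0.873, tied with miR-186-5p and miR-3605-3p). The profile nearest to miR-425-5p was that of miR-3200-3p (r = 0.881), before miR-7977 (r = 0.867), miR-5701 (r = 0.866), miR-340-5p (r = 0.861) and miR-877-5p (r = 0.859). Its own 3p arm was at rank 25 (r = 0.767) and miR-191-5p at rank 93. None of these 5 was among the top 5 with TMM factors, where miR-363-3p came first (r = 0.887). The order for miR-425-5p thus depended on the scale.

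As a further description, the log2 ratio of neighbouring hairpins on the same strand within 10 kb was followed over the lines. Among 182 such pairs, the range of the ratio of miR-425 to miR-191 was 3.23, at rank 69 from the narrowest (median 3.83). Most of these pairs, 141, lie in the chromosome 14 clusters. Among the 41 other pairs it had rank 24 (median 3.004). Within the NEXTflex lines its range was 1.07, at rank 41 of the 182 pairs (median 2.08) and at rank 22 of the 41 pairs outside chromosome 14 (median 1.01).

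Since both 5p arms serve as reference miRNAs in RT-qPCR, their spread was set beside a list of 18 miRNAs used for this purpose. All 18 differed across the 6 lines on CPM, as 99.3% of the tested miRNAs did, and with TMM factors. The median range of the list was 4.53 on the log2(CPM + 1) scale against 5.13 over all tested miRNAs, and 2.49 against 4.50 with TMM factors. From the narrowest range upward, miR-425-5p was at place 9 and miR-191-5p at place 12 on CPM, and at places 13 and 14 with TMM factors. Within the NEXTflex lines the pair had the widest ranges of the list, 4.28 for miR-425-5p and 3.20 for miR-191-5p, and PANC1 was the highest line for both. Without PANC1 their ranges fell to 1.49 and 1.41, and the widest range of the list was that of miR-24-3p with 2.35. Over the 4 NEXTflex lines miR-423-3p varied least with 0.36. MiR-484 had the narrowest range with TMM factors over the 6 lines, 0.97. On CPM all 18 had their lowest mean in HepG2, as did 46.3% of all tested miRNAs.

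**Figure D5:**
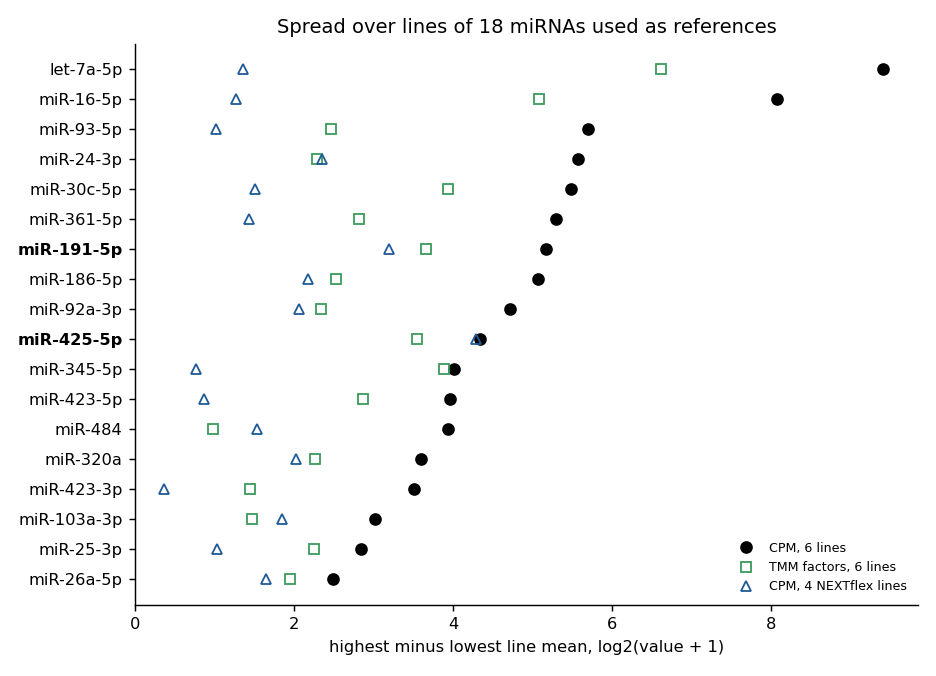
Difference between the highest and the lowest line mean, log2(value + 1), of 18 miRNAs used as RT-qPCR references, for CPM over 6 lines (black), TMM factors over 6 lines (green squares) and CPM over the 4 NEXTflex lines (blue triangles). MiR-191-5p and miR-425-5p (bold) have the widest ranges within the NEXTflex lines, 3.20 and 4.28, which rest on PANC1.

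Other miRNAs of chromosome 3 were listed to see whether the PANC1 level was shared along the chromosome. Of 125 listed, 13 were tested, all 13 differed across the lines, as did 99.3% of all tested miRNAs, and 5 were highest in PANC1, as were 19.8% of all tested. Within 5 Mb of the cluster 4 of 28 were tested. MiR-1226-3p, from a hairpin 1.17 Mb away, was highest in PANC1 with 64.6 CPM, close to MV3 with 60.6 CPM. It was lowest in HepG2 with 0.913 CPM. With TMM factors its lowest line was A549, at 2.08 against 2.50 in HepG2 (line means of log2(value + 1)). Let-7g-5p and miR-138-1-3p were highest in ES2, with 15480.0 and 19.5 CPM, and miR-4443 in BE(2)C with 20.2 CPM. For let-7g-5p PANC1 was close to ES2, with 14873 CPM. Hence 1 of the 4 tested neighbours had its highest mean in PANC1, and only narrowly above MV3.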

How the data were processed

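Small RNA-seq of 11 libraries of 6 cell lines was used. The authors deposited 1 table per line with 2813 rows for 2588 mature miRNAs. The deposited values of 5 lines were a scaled signal, CPM divided by a factor set within each table, and those deposited for PANC1 were plain CPM. Values of all libraries (100%, tolerance 0.01) were whole multiples of 1 read, so whole reads were recovered and CPM was recomputed per library. The submitters' processing notes list cutadapt 1.14, Bowtie2 2.3.2, SAMtools 1.5, featureCounts 1.5.3, edgeR 3.30.3 and hg38, and their roles for small RNA are not given in the sources used here, nor is the treatment of strand or of reads that match several hairpins.

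Tests used limma 3.58.1 under R 4.3.3 on log2(CPM + 1) for all miRNAs whose mean reached 10 CPM in 1 or more lines (line as factor, trend, Benjamini-Hochberg, threshold 0.05). The spread was pooled over lines, so PANC1 was assumed to vary like the others. A fold change on this scale understates changes of low miRNAs. The design had assumed plain CPM in all tables. The hairpin balance was tested by exact permutation, and the p-values of both tests were adjusted with SciPy 1.17.1. Alternatives were TMM factors, pseudocounts of 0.5 and 5, a filter of 100 CPM or none, edgeR 4.0.16, DESeq2 1.42.0, the deposited values, a replicate block and each library left out. The fits were tested on simulated data. Named miRNAs were the 4 members, the 5 most similar profiles of each 5p arm, the reference list and neighbours within 5 Mb; the members and lists were chosen with earlier results of these data known.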

Additional observations from a re-analysis of the deposited data

How the results depend on the processing

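All 4 members stayed past the threshold of both F tests under every alternative that was run (144 settings of member and test). The 6-line F test called 837 miRNAs with no filter (of 1608) and 313 with the 100 CPM filter (of 314), and between 517 and 544 with 1 library left out. The NEXTflex F test called 230 with the 100 CPM filter (of 235) and between 333 and 349 with 1 library left out. For pairs of lines, 21 of 40 member contrasts passed with TMM factors, 20 with edgeR and 18 with DESeq2. Over all tested miRNAs the share past the threshold per pair was 27.1% to 76.6% with TMM factors. It was 22.9% to 75.8% with edgeR and 28.2% to 72.9% with DESeq2. These 3 alternatives scale libraries by factors other than the read total alone, and the TMM factors lift HepG2. All 3 reversed the following log2 differences (TMM factors, edgeR and DESeq2 in that order). A549 minus HepG2 was -0.51, -0.57 and -0.53 for miR-191-5p, -1.57, -1.71 and -1.68 for miR-425-3p, and -2.42, -2.48 and -2.43 for miR-425-5p. ES2 minus HepG2 was -0.041, -0.020 and -0.38 for miR-425-3p and -1.25, -1.26 and -1.60 for miR-425-5p. MV3 minus HepG2 was -1.82, -1.88 and -2.12 for miR-425-5p. BE(2)C minus HepG2 was -0.78, -1.31 and -1.17 for miR-191-3p, -1.71, -1.84 and -1.81 for miR-191-5p, -0.47, -0.70 and -0.65 for miR-425-3p, and -0.36, -0.52 and -0.39 for miR-425-5p. ES2 minus MV3, a pair without HepG2, was 0.14, 0.19 and 0.080 for miR-191-5p. DESeq2 alone reversed miR-191-5p for ES2 minus HepG2 (-0.12) and MV3 minus HepG2 (-0.20). With 1 library left out, miR-425-5p ranged from -0.11 to 0.23 for A549 minus HepG2 and miR-425-3p from -0.088 to 0.55 for ES2 minus BE(2)C. The cause of the reversals was not tested further.

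The range of the hairpin balance was 2.22 from the 3p arms alone over 6 lines (exact permutation p = 0.123) and 0.82 over the NEXTflex lines (exact permutation p = 0.6). With 1 library left out it lay between 2.20 and 4.27 and between 0.43 and 1.09. The arm ratio differed for 62 hairpins of 69 with the 100 CPM filter and for 119 to 139 with 1 library left out. Within the NEXTflex lines 8 passed at a pseudocount of 0.5, 55 at 5 and between 2 and 13 with 1 library left out, so this count rests on few libraries. The miR-425 arm ratio ranged over 2.46 to 3.53 across 6 lines with 1 library left out. It passed within the NEXTflex lines at a pseudocount of 5 (range 2.15, limma adjusted p = 0.0368) and with the 100 CPM filter (range 2.14, limma adjusted p = 0.0446). Replicate numbers did not pair the libraries, with correlations of their deviations between lines from -0.05 to 0.11. With the replicate number as a block, 535 and 363 miRNAs passed the F tests, 4 arm ratios passed within the NEXTflex lines, and all 40 member contrasts kept their direction and their side of the threshold. Low read counts of the 3p arms, 19 and 8 for miR-191-3p in HepG2, limit the arm values of that line. Its miR-191 arm ratio was 7.15 at the main pseudocount of 1. It was the highest of the 6 lines at a pseudocount of 0.5 (7.56) and the lowest at 5 (5.62). The F test of miR-191 passed at neither of these alternatives (limma adjusted p = 0.381 and 0.477).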
